A study of Mus musculus with 7 samples.

Results

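Smcp, Spem1, Oaz3, Pdcl2, Rasl2-9, Prr27 and Tsx are 7 genes whose RNA was read in mouse sperm. They were chosen from these same arrays, 3 because the KDM1A transgenic line and C57BL/6 read nearly equal levels (Smcp, Spem1, Oaz3) and 4 because the line read far lower (Pdcl2, Rasl2-9, Prr27, Tsx). The line stands for TG3 and nonTG3 males together. Each gene was read by 1 probe set, so these are 7 of the 23493 probe sets with a single gene symbol, which cover 22154 symbols. The choice set no numeric limit on near equal or far lower. The difference between the line and C57BL/6 is therefore a description of these genes and is given with no test.

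A transgenic KDM1A construct, coding for a histone lysine demethylase, was injected into C57BL/6 zygotes, and heterozygous males from a pair of female founders passed it on through 3 generations of matings with C57BL/6 females. TG3 are third-generation males with the transgene and nonTG3 are their littermates without it, so both come from the same line and share its breeding. TG3 and nonTG3 had 3 arrays each, every array a pool of RNA from 4 males, and C57BL/6 had 1 array from 5 males and has no replicate. Neither the promoter that drives the transgene nor the age of the males is stated in the labels. The labels also do not say that each pool held different males, and p-values here cover the variation among pools of the line, which may be technical. For the line against C57BL/6 the spread comes from the TG3 and nonTG3 arrays, and the C57BL/6 array is assumed to vary like them. Variation among C57BL/6 pools was not measured, so no p-value here covers it.

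Spermatids, the haploid cells that become sperm, stop transcribing while their chromatin is packed with protamines. Many of their messenger RNAs are made early, stored bound to protein and translated days later, and some remain in the mature cell. Smcp encodes a cysteine-rich protein of the capsule around sperm mitochondria, and its message is a classic example of delayed translation. Spem1 is needed to shed spermatid cytoplasm from the sperm neck, and Oaz3 is the testis form of ornithine decarboxylase antizyme, which restrains polyamine synthesis. Mice without Oaz3 form sperm whose heads detach from the tails. Pdcl2 is a germ cell phosducin-like protein, a family that works with the chaperonin CCT, and male mice without it are infertile. Rasl2-9 is a testis gene related to the nuclear transport GTPase Ran, and its older names in the RefSeq table include that of Ran. Tsx lies in the X inactivation centre, and in mouse testis its RNA has been described in Sertoli cells and in meiotic germ cells. Prr27 is named for a proline-rich protein. The arrays held whole sperm RNA, so the stage at which each RNA was made was not measured. The word spermatid comes from background knowledge, which as given here does not place Oaz3, Pdcl2, Rasl2-9, Prr27 or Tsx in spermatids.

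The 250 bases before the start site are shown for the 6 genes that RefSeq's promoter table (GRCm38.p6) holds, because 4 of these RNAs read far lower together in the line while the others read near equal. These sequences are from the reference and were not measured here, and the table had no entry for Oaz3. Capitals mark exact matches, on either strand, to any of the motifs searched. The full cAMP response element, bound by the spermatid activator CREM, was searched as TGACGTCA. Its shorter core, which every full element contains, was searched as TGACG. The TATA box was searched as TATAAA. The GC box was searched as GGGCGG, and the CCAAT box by the letters of its name.
Smcp (chr3:92589074-92589323, minus strand): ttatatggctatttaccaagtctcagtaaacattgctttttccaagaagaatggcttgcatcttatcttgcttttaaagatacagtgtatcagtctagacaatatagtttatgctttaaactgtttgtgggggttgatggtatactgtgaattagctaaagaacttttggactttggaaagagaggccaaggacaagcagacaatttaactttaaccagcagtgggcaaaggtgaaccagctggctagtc
Spem1 (chr11:69822166-69822415, minus strand): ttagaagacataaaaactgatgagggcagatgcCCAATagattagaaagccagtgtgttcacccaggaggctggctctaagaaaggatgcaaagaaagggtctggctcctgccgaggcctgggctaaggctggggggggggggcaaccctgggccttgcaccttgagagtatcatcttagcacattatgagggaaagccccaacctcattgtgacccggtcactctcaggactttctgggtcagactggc
Pdcl2 (chr5:76331157-76331406, minus strand): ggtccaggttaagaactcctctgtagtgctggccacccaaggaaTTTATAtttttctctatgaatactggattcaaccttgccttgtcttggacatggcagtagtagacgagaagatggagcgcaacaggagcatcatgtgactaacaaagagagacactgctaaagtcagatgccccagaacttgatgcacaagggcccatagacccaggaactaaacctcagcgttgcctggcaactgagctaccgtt
Rasl2-9 (chr7:5125951-5126200, minus strand): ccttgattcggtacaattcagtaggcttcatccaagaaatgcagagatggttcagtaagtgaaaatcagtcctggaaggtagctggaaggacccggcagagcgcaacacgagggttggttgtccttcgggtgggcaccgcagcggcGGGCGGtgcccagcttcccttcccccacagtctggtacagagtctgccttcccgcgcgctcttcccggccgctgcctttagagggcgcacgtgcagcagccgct
Prr27 (chr5:87825447-87825696, plus strand): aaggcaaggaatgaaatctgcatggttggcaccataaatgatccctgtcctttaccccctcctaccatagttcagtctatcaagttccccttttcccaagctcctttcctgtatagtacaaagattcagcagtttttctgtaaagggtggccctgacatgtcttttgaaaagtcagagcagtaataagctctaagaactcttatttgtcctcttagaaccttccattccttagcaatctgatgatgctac
Tsx (chrX:103414217-103414466, plus strand): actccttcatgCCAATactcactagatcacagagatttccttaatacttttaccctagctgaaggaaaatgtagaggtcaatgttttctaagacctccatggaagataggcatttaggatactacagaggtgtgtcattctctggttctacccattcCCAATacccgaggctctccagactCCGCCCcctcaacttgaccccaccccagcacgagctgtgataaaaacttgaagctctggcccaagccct

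No window held TGACG or TGACGTCA, which 17.8% and 1.55% of 32851 windows of this length held. Pdcl2 had TATAAA on the other strand, 206 to 201 bases before its start (12.4% of all windows held it on either strand). GGGCGG, in 32.7% of all windows, was matched in Rasl2-9 and Tsx, and the CCAAT box, in 33.8%, in Spem1 and at 2 places in Tsx. The G and C share was 60.4% in Rasl2-9, with 17 CG pairs, and 38% in Smcp and 42% in Prr27, each with 0 CG pairs. The median over all windows was 52.4% with 6 CG pairs. No motif was shared by all 4 genes of the lower group, and these matches say nothing about which factors bound there.

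Values are log2 RMA intensities as the authors deposited them. RMA corrects background, brings all arrays to one distribution and combines the probes of a probe set. A log2 level of one probe set is not set against that of another, since probes differ in how well they bind. The array medians lay between 3.52 and 3.61, and whether a value below the lowest of them lies above background was not measured. Defining sperm genes were read on every array: Tnp2 gave 11.55 in C57BL/6 and a line mean of 11.13 ± 0.19 (SD, n = 6), and Odf1 11.55 and 11.51 ± 0.33 (SD, n = 6). Of 14 sperm and late spermatid markers measured 4 were lower in the line by limma (Prm1, Tnp1, Acrv1 and Spam1), as were 2.85% of all probe sets. That list averaged 8.43 in C57BL/6, 7.17 to 7.50 in TG3 and 7.34 to 7.59 in nonTG3, and 1 of the 14 averaged below the lowest array median in the line.

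Smcp read almost the same in the line and in C57BL/6. The C57BL/6 array gave 11.88, TG3 replicates 1, 2 and 3 gave 11.59, 11.87 and 12.11, and nonTG3 replicates 1, 2 and 3 gave 11.87, 11.56 and 11.77. C57BL/6 lay inside the range of the line, and the TG3 and nonTG3 arrays overlapped. TG3 averaged 11.86 ± 0.26 (SD, n = 3), nonTG3 averaged 11.74 ± 0.16 (SD, n = 3), and the line mean minus C57BL/6 was -0.085 log2 units. The order of the levels was C57BL/6, TG3, nonTG3, with each step smaller than the SD of either group.

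Spem1 read 10.77 in C57BL/6, 10.59, 10.67 and 10.21 in TG3 and 10.31, 10.55 and 10.61 in nonTG3. All 6 arrays of the line lay below C57BL/6, the nearest by 0.10 log2 units. Over all probe sets tested, 14.3% had all 6 arrays of the line below C57BL/6. TG3 averaged 10.49 ± 0.25 (SD, n = 3), nonTG3 averaged 10.49 ± 0.16 (SD, n = 3), and the line minus C57BL/6 was -0.28. TG3 and nonTG3 could not be ordered beyond their spread.

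Oaz3 read 10.74 in C57BL/6, 10.51, 11.03 and 10.92 in TG3 and 10.71, 10.32 and 10.74 in nonTG3. The value of nonTG3 replicate 3 equalled that of C57BL/6 exactly, 3 of the 6 arrays of the line were lower and the other two were higher. TG3 averaged 10.82 ± 0.27 (SD, n = 3) and nonTG3 10.59 ± 0.23 (SD, n = 3). The line minus C57BL/6 was -0.032, and TG3, C57BL/6 and nonTG3, in that order, were not separated beyond their spread. The signs of the Smcp and Oaz3 differences depended on scaling: with quantile normalization repeated they were 0.00051 and 0.042, and with cyclic loess -0.40 and -0.31, where Spem1 was -0.55. These scalings moved the median over all probe sets by -0.0067 and -0.059.

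**Figure D1:**
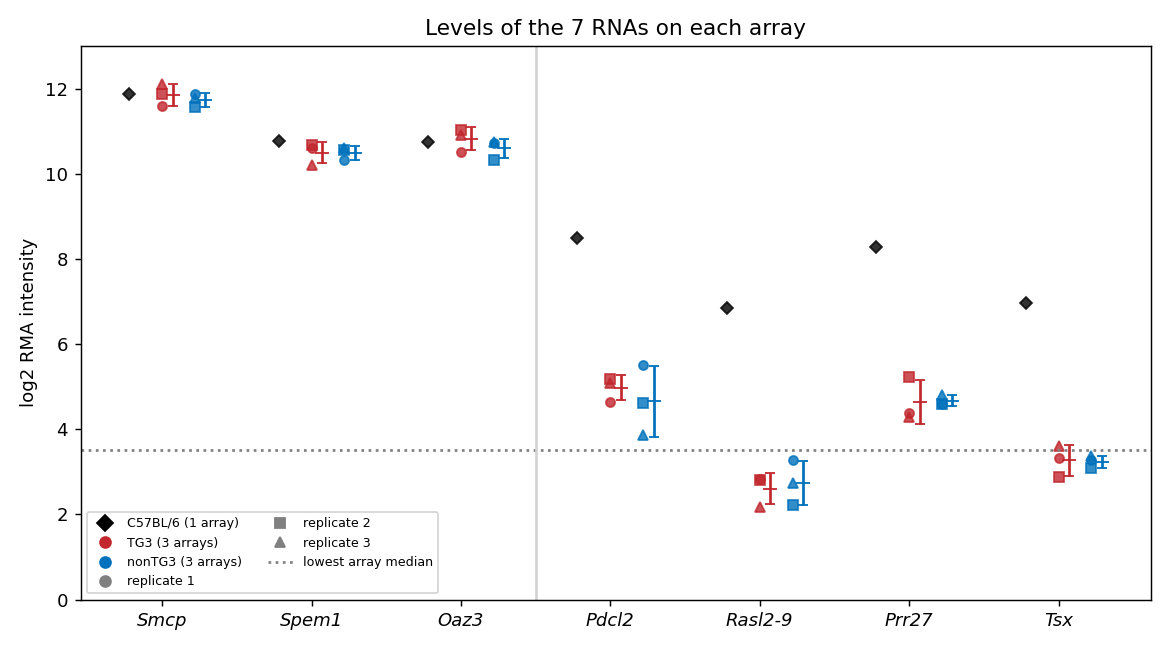
Log2 RMA intensity (vertical axis) of the 7 genes on each of the 7 arrays. Diamonds are the single C57BL/6 array, other symbols are replicates of TG3 (red) and nonTG3 (blue), horizontal ticks and bars are mean and SD (n = 3), and the dotted line is the lowest array median, 3.52. For Pdcl2, Rasl2-9, Prr27 and Tsx every array of the line lies far below the diamond, and for Smcp, Spem1 and Oaz3 they lie beside it.

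Pdcl2 read 8.48 in C57BL/6, 4.65, 5.18 and 5.10 in TG3 and 5.51, 4.61 and 3.86 in nonTG3. No array of the line came within 2.97 log2 units of C57BL/6, but the nonTG3 arrays were far apart from each other. The line averaged 4.82 ± 0.58 (SD, n = 6), which is 3.67 log2 units below C57BL/6, a linear ratio of 12.7, or 7.84 to 24.7 taken array by array. TG3 averaged 4.98 ± 0.29 (SD, n = 3) and nonTG3 4.66 ± 0.83 (SD, n = 3), a step smaller than the SD of nonTG3.

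Prr27 read 8.28 in C57BL/6, 4.39, 5.23 and 4.29 in TG3 and 4.60, 4.60 and 4.81 in nonTG3. All 6 arrays of the line were at least 3.05 log2 units lower than C57BL/6, and nonTG3 replicates 1 and 2 had exactly equal values. The line averaged 4.66 ± 0.33 (SD, n = 6), a difference of -3.62 and a linear ratio of 12.3, with 8.28 to 15.8 taken array by array. TG3 averaged 4.64 ± 0.51 (SD, n = 3) and nonTG3 4.67 ± 0.12 (SD, n = 3).

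Rasl2-9 read 6.84 in C57BL/6, 2.82, 2.81 and 2.18 in TG3 and 3.27, 2.22 and 2.73 in nonTG3. All 6 readings in the line were below the lowest array median, so no ratio is given for it. The line averaged 2.67 ± 0.41 (SD, n = 6), TG3 alone 2.60 ± 0.37 (SD, n = 3) and nonTG3 alone 2.74 ± 0.52 (SD, n = 3). Ran itself read 4.33 in C57BL/6, with a line mean of 3.54 ± 0.32 (SD, n = 6), from 3.03 to 3.78. Its change was not called (limma adjusted p = 0.24), and whether the Rasl2-9 probes also bind Ran RNA was not tested.

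Tsx read 6.96 in C57BL/6, 3.33, 2.88 and 3.61 in TG3 and 3.27, 3.08 and 3.37 in nonTG3. Of the 6 readings in the line 5 were below the lowest array median, so again no ratio is given. The line averaged 3.26 ± 0.25 (SD, n = 6), and TG3, at 3.27 ± 0.37 (SD, n = 3), and nonTG3, at 3.24 ± 0.14 (SD, n = 3), were nearly equal. All 4 genes of the lower group thus had C57BL/6 first in order, with TG3 and nonTG3 not separated beyond their spread.

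The line minus C57BL/6 had a median of 0.037 over all 23493 probe sets and a 5th percentile of -0.83. Smcp, Spem1 and Oaz3 averaged at or above 10 over the 7 arrays, as 60 probe sets did. The lower 4 averaged under 6, because the mean is dominated by the 6 arrays of the line. Whether the 7 RNAs were abundant, as molecules per sperm, is not settled by probe intensities. Fewer cells that hold an RNA and less RNA per cell also cannot be told apart in pooled sperm.

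**Figure D2:**
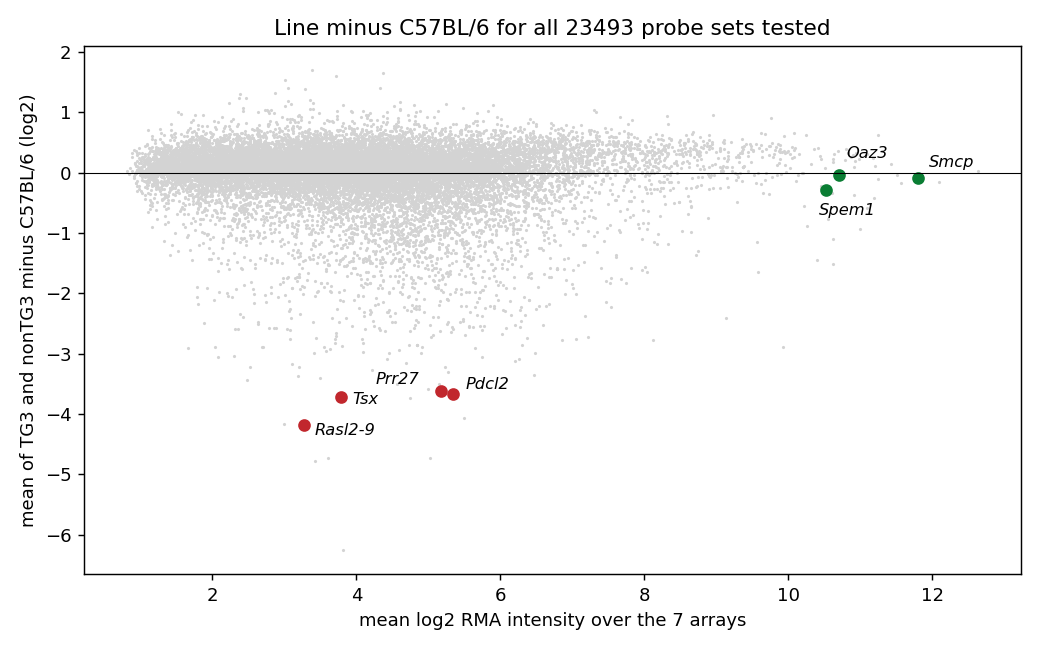
The mean of TG3 and nonTG3 minus C57BL/6 (vertical axis, log2) against the mean over the 7 arrays (horizontal axis, log2 RMA intensity) for each probe set tested (grey). Smcp, Spem1 and Oaz3 (green) sit near 0 at the bright end, and Pdcl2 and Prr27 (red) sit at -3.67 and -3.62. Rasl2-9 and Tsx (also red) are drawn from line means below the lowest array median, so their height in the plot is not a measured size.

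TG3 against nonTG3, which asks whether these RNAs differ with the transgene among littermates, is the contrast that the choice of genes did not use. None of the 7 passed the test. limma, with Benjamini-Hochberg adjustment over all 23493 probe sets, called 0% of them, with 559 at an unadjusted p under 0.05, and 0 of the 7 genes reached that. The TG3 and nonTG3 arrays overlapped for all 7, where 4.12% of all probe sets did not overlap. TG3 minus nonTG3 was 0.12 for Smcp (95% interval -0.28 to 0.52), 0.0020 for Spem1 (-0.39 to 0.39) and 0.23 for Oaz3 (-0.24 to 0.69). It was 0.32 for Pdcl2 (-0.76 to 1.39), -0.14 for Rasl2-9 (-0.93 to 0.65), -0.036 for Prr27 (-0.69 to 0.62) and 0.034 for Tsx (-0.47 to 0.54). The limma adjusted p lay between 0.923 and 1. The Rasl2-9 and Tsx values compare readings that mostly lie below the lowest array median, where a difference may not be measurable.

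The intervals leave room for a change of 1 log2 unit upward in Pdcl2 alone. They do not show that the groups are equal. TG3 was higher in 5 genes and lower in 2, but leaving out 1 array turned the sign for every gene except Oaz3. For Pdcl2 it was -0.087 without nonTG3 replicate 3, the array with its lowest reading.

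**Figure D3:**
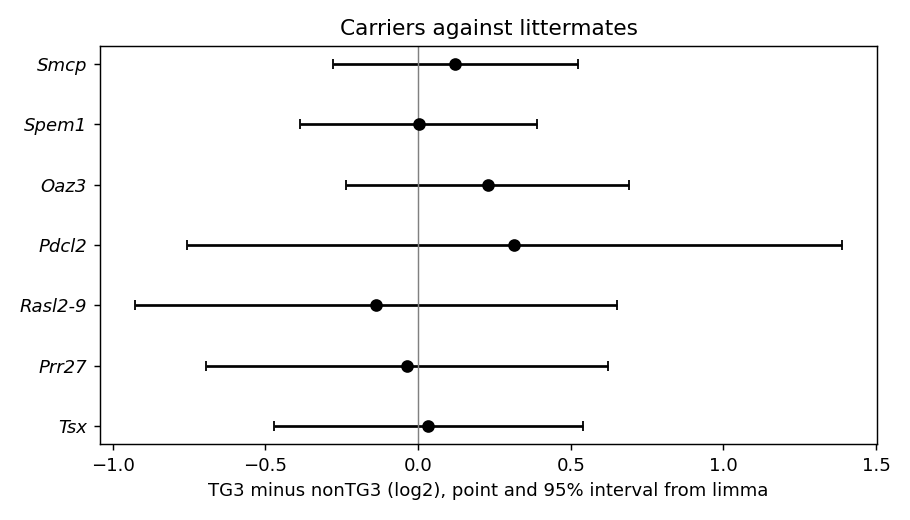
TG3 minus nonTG3 (horizontal axis, log2) for each gene, with the 95% interval from limma over all 7 arrays. Every interval includes 0, and that of Pdcl2 is the widest of the 7.

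Within the line the near equal genes had SDs of 0.18 to 0.26 and the lower genes 0.25 to 0.58 (n = 6). The residual SD of Pdcl2, 0.62, exceeded that of 96.7% of all probe sets, and that of Smcp, 0.21, was near the median of 0.21. The 4 lower genes shared some high and low arrays but not all. All 4 lay below their own line mean on nonTG3 replicate 2. Rasl2-9 shared its highest array, nonTG3 replicate 1, with Pdcl2 and its lowest, TG3 replicate 3, with Prr27. Pdcl2 was highest on nonTG3 replicate 1 and lowest on nonTG3 replicate 3, whereas Prr27 was highest on TG3 replicate 2 and Tsx lowest there. Smcp and Oaz3 were both lowest on nonTG3 replicate 2. After each gene was centred on its own line mean, these 2 genes differed by a root mean square of 0.13 log2 units over the 6 arrays, and other pairs of the 7 by 0.23 to 0.63.

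**Figure D4:**
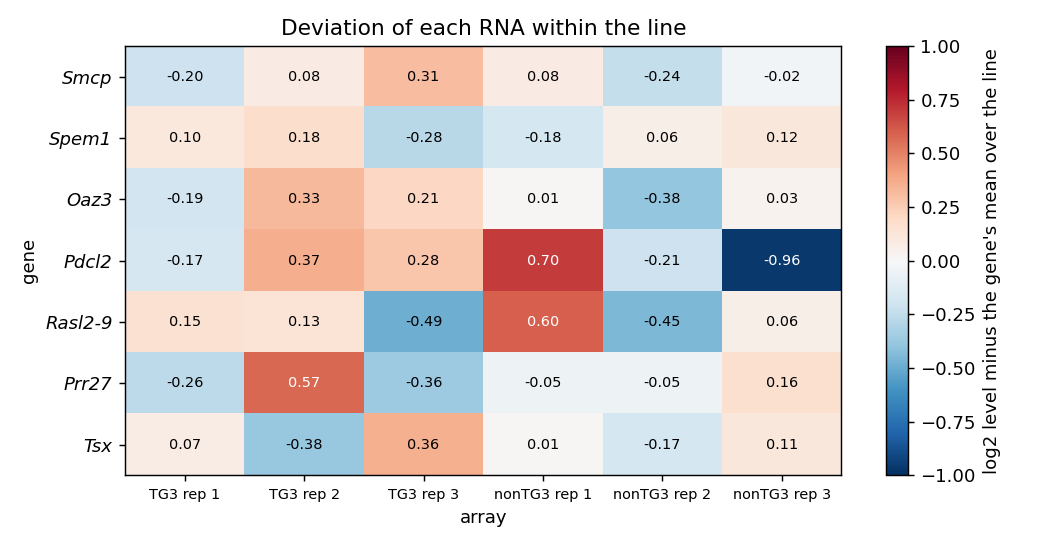
Log2 level of each gene on each array of the line minus the gene's own mean over those 6 arrays (colour and printed value). Pdcl2 spans -0.96 to 0.70, and no array is low or high for all 7 genes.

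Mitochondrially encoded RNA differed between the arrays of the line. Its 10 measured genes averaged 8.80, 11.44 and 11.51 on TG3 replicates 1, 2 and 3, 11.55, 9.98 and 8.91 on nonTG3, and 11.24 in C57BL/6. Without TG3 replicate 1 and nonTG3 replicate 3, the line minus C57BL/6 was -0.027 for Smcp, -0.33 for Spem1, 0.0078 for Oaz3, -3.38 for Pdcl2 and -3.60 for Prr27. These 5 differences moved by less than 1 SD of the line. On the 4 arrays left, Rasl2-9 read 2.18 to 3.27 and Tsx 2.88 to 3.61, against 6.84 and 6.96 in C57BL/6.

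Some markers of other cell types also differed between the line and C57BL/6. Over all probe sets limma called 2.85% lower in the line and 0.17% higher. Of 6 Leydig cell genes measured 4 were lower by limma, among them Cyp17a1, of androgen synthesis (6.56 against 2.40 ± 0.25, SD, n = 6). All 6 averaged below the lowest array median in the line, where signal above background was not measured. The list averaged 4.09 in C57BL/6, 2.66 to 2.74 in TG3 and 2.53 to 2.65 in nonTG3. Of 12 Sertoli cell genes 2 were lower, Cst9 and Cst12, and the list averaged 4.60, 3.80 to 3.92 and 3.61 to 3.88 in the same order. Sox9, Amh, Wt1 and Fshr, which define Sertoli cells, were not called. They read 4.25, 3.90, 3.81 and 1.85 in C57BL/6 and 4.45, 4.04, 3.96 and 1.87 in the line. Fshr lay below the lowest array median in both, where a change may not be measurable. Of 11 meiotic and spermatogonial genes 3 were lower, Sycp1, Sycp2 and Smc1b, and the list averaged 4.26, 3.32 to 3.54 and 3.38 to 3.63. Sycp1 and Sycp2 averaged 2.55 and 3.39 in the line, below the lowest array median. No gene of the leukocyte list or of the list for fibroblasts, muscle and vessels was called, and of 10 epididymal genes 1 was higher, Lcn8. Lcn8 read 2.45 in C57BL/6 and averaged 3.16 in the line, both below the lowest array median. The part of these cell types in the 4 low readings was not tested.

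Genes tied to the 7 by pathway or locus were read from 9 lists, which hold 105 measured genes that are not among the 7. limma called 670 of all probe sets, 2.85%, lower in the line than in C57BL/6, and 0.17% higher, which makes 3.02% in either direction. Of the 105 genes 20 were lower and 0 higher, and these lists were drawn up with earlier results of these data known. Between TG3 and nonTG3 no list member was called, against 0% of all probe sets (smallest limma adjusted p over all probe sets 0.923). The 710 calls in both directions became 396 without TG3 replicate 2, and 428, 350 and 438 without nonTG3 replicates 1, 2 and 3. With TG3 replicate 1 and nonTG3 replicate 3, the arrays poorest in mitochondrial RNA, both left out, the 710 and the 20 each became 0, in a fit with fewer residual degrees of freedom. Differences of some genes named below stayed close: without those arrays Spata19 was -4.04 (-4.06 with all arrays, limma adjusted p = 0.0655), Tnp1 -2.93 (-2.88, limma adjusted p = 0.0653) and Acrv1 -2.73 (-2.73, limma adjusted p = 0.0653). Pabpc6 was slightly smaller, at -1.87 (-1.91 with all arrays).

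Around Smcp, 6 of 12 genes of the sperm mitochondrial sheath fell, with a median difference of -1.59 (all probe sets 0.037). Spata19, a mitochondrial protein of the midpiece, read 8.97 in C57BL/6, with a line mean of 4.91 ± 0.31 (SD, n = 6, limma adjusted p = 0.0021). Vdac3, an outer membrane channel, read 9.24 and 6.47 ± 0.25 (SD, n = 6), and the testis cytochrome oxidase subunit Cox6b2 9.30 and 7.16 ± 0.07 (SD, n = 6). Gk2, Spata33 and Cox7b2 fell as well, though Cox7b2 averaged 3.05 in the line, below the lowest array median. Gpx4, the selenium peroxidase that hardens the capsule, read 7.12 and 6.86 ± 0.12 (SD, n = 6) and was not called (limma adjusted p = 0.571).

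Of 12 other RNAs on the list drawn up for delayed translation 5 fell, with a median of -1.04. When each of them is translated was not measured here. Tnp1, a transition protein, read 12.40 in C57BL/6, with a line mean of 9.51 ± 0.21 (SD, n = 6, limma adjusted p = 0.00218). Ldhc, the sperm lactate dehydrogenase, and Acrv1, of the acrosome, fell from 8.76 and 7.38 to 6.23 and 4.65, and the protamine genes Prm1 and Prm3 also fell. Odf2, of the outer dense fibres, was not called at 8.37 in C57BL/6 and 8.10 in the line, nor was the sperm kinase Pgk2 at 7.98 and 7.58. Gapdhs, the sperm glycolytic dehydrogenase, read 9.94 and 9.60, and the fibrous sheath genes Akap3 and Akap4 read 7.21 and 8.05 in C57BL/6 and 6.09 and 7.08 in the line, none of them called. Among 16 genes for RNA binding and translation control 6 fell (median -0.66). They included Ybx2, which binds stored spermatid messages including that of Smcp, at 7.85 and 6.66 ± 0.07 (SD, n = 6). Pabpc6, a poly(A) binding protein, and Tdrd6, of the chromatoid body, fell by 1.91 and 2.48 log2 units. Papolb, the testis poly(A) polymerase, read 5.78 in C57BL/6 and averaged 3.05 in the line, below the lowest array median.

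Around Spem1, 0 of 5 genes of cytoplasm removal were called (median -0.035). Spem2, which lies next to Spem1, read 10.19 in C57BL/6, with a line mean of 10.33 ± 0.18 (SD, n = 6, limma adjusted p = 1). Ranbp17, a binding partner of Spem1 protein, read 5.98 and 5.35 ± 0.37 (SD, n = 6), and Alox15, a lipoxygenase, 3.29 and 3.59 ± 0.13 (SD, n = 6). Around Oaz3, 0 of 12 genes of polyamine metabolism were called (median 0.12). Azin2, the antizyme inhibitor of testis, read 7.59 and 8.13 ± 0.28 (SD, n = 6), and Satl1 4.81 and 4.27 ± 0.26 (SD, n = 6).

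Around Pdcl2, 2 of 13 genes of the phosducin-like family and CCT fell, with a median of -0.87. Both are chaperonin subunits: Tcp1 read 7.96 in C57BL/6, with a line mean of 5.82 ± 0.22 (SD, n = 6, limma adjusted p = 0.0122), and Cct4 6.34 and 5.08 ± 0.14 (SD, n = 6). Cct4 lost its call without any one of the TG3 replicates (limma adjusted p up to 0.0601), with a difference of -1.27, -1.27 and -1.24 in those fits against -1.26. The other phosducin-like genes, Pdc, Pdcl and Pdcl3, were not called and read 2.70 to 3.48 in C57BL/6 and 3.15 to 3.60 in the line. Of 17 genes of the Ran cycle 1 fell (median -0.069), which was Kpna2, an importin alpha. It read 6.36 in C57BL/6, with a line mean of 4.83 ± 0.15 (SD, n = 6), and lost its call without nonTG3 replicate 1 or 2 (limma adjusted p up to 0.0522), with a difference of -1.52 and -1.50 there against -1.53.

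Around Tsx, 0 of 6 measured genes of the X inactivation centre were called (median 0.011). Zcchc13 read 5.65 and 4.69 ± 0.30 (SD, n = 6), and Cdx4 1.64 and 1.96 ± 0.08 (SD, n = 6). Around Prr27, 0 of 12 genes of the casein and enamel cluster were called (median 0.068), and 11 of the 12 read below the lowest array median in C57BL/6. Cabs1, the gene above it, read 8.90 in C57BL/6, with a line mean of 8.41 ± 0.33 (SD, n = 6, limma adjusted p = 0.793). Csn2, a casein, read 3.14 and 2.43 ± 0.24 (SD, n = 6), and Amtn, of enamel, 2.14 and 2.57 ± 0.15 (SD, n = 6).

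**Figure D5:**
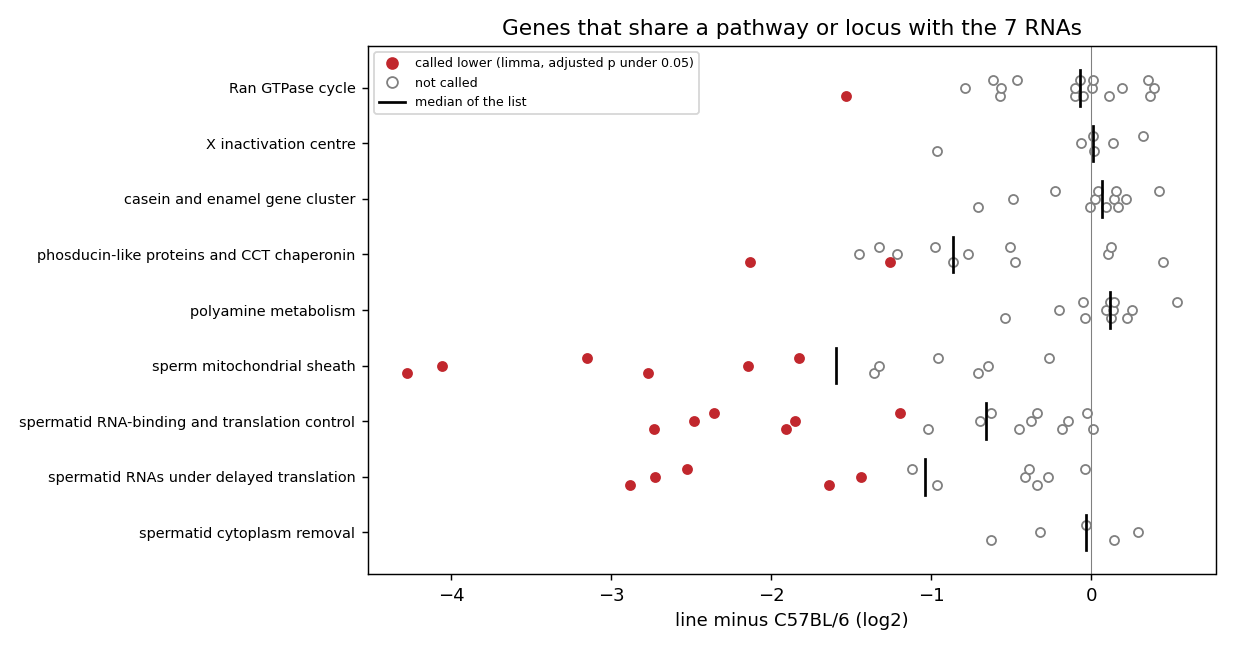
Line minus C57BL/6 (horizontal axis, log2) for each gene of the 9 lists. Filled points were called lower by limma, open points were not called, and a bar marks the median of a list. Called genes lie in the mitochondrial sheath (6), translation control (6), delayed translation (5), CCT (2) and Ran (1) lists.

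The nearest annotated gene with a probe set on each side of the 7 gave 14 neighbours. Between the line and C57BL/6, 0 of the 14 were called, which is near the 3.02% of all probe sets. Lce6a, Tdrkh, Rfpl4, Vmn1r55, Csn1s2b, Chic1 and LOC668415 read below the lowest array median in C57BL/6, where a fall may not be measurable. Chic1 before Tsx read 1.56 in C57BL/6, with a line mean of 1.70 ± 0.18 (SD, n = 6), and Csn1s2b before Prr27 1.66 and 1.81 ± 0.32 (SD, n = 6). Rfpl4 and Vmn1r55 on either side of Rasl2-9 read 1.85 and 1.71 in C57BL/6, and Gm7467 and 4930432L08Rik beside Pdcl2 read 3.79 and 3.55. Tdrkh and Mrpl9 beside Oaz3 read 3.40 and 4.24, and Ivl and Lce6a beside Smcp 3.75 and 3.09. Apart from Spem2, neighbours thus had readings of 4.27 or less in C57BL/6.

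Genes with the most similar profile were ranked by the root mean square difference over the 7 arrays after each was centred on its own mean. Candidates were 10776 other named probe sets at or above the median (10777 for Rasl2-9). For the 4 lower genes this profile is mostly the gap between C57BL/6 and the line, which was used to choose them. Their ranking therefore lists genes with a similar gap and is a description only. For Rasl2-9 and Tsx most line readings lay below the lowest array median, so their distances are not measured sizes. Phf7, a chromatin reader of male germ cells, Spata4 and Marchf11 came nearest to Pdcl2, at 0.35, 0.43 and 0.50 log2 units. Cdkn3, Spata19 and Marchf11 came nearest to Rasl2-9 (0.32, 0.35 and 0.36). Zpbp2, of the acrosome, Cdkn3 and Pmis2 came nearest to Prr27 (0.22, 0.26 and 0.27), and Marchf11, Pmis2 and Meig1 to Tsx (0.26, 0.31 and 0.32). Phf7 read 9.35 in C57BL/6, with a line mean of 5.99 ± 0.24 (SD, n = 6), and Zpbp2 7.07 and 3.98 ± 0.28 (SD, n = 6). For the near equal genes the profiles were nearly flat. Odf2, Sfmbt1 and Umps came nearest to Spem1 (0.052, 0.061 and 0.063), Fndc10, Mrpl2 and Tor2a to Smcp (0.055, 0.073 and 0.078), and Klhl15, Chmp4c and Fndc10 to Oaz3 (0.052, 0.055 and 0.072).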

How the data were processed

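RNA of mouse sperm was read on 7 arrays, with 33604 probe sets. The deposited log2 intensities were made by the authors with R 3.1.0, oligo, RMA and limma, per the submitters' processing notes. Not given in the sources used here: genome build, filters and scan batches. The platform annotation gave the gene names, and the 23493 with 1 symbol were tested (1801 had several and 8310 none). limma 3.58.1 in R 4.3.3 fitted a mean per group to all 7 arrays, with eBayes and Benjamini-Hochberg adjustment. Calls needed an adjusted p under 0.05. The lone C57BL/6 array was assumed to vary like the others. Residual and prior degrees of freedom were 4 and 1.65. Fits were tested on simulated data.

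The 7 genes, the lists and the tests were chosen with earlier results of these data known. Named genes were the 7, their 3 nearest profiles and nearest neighbours, Ran, and per list up to 3 called genes with the smallest p, or otherwise 2. Other genes named were chosen after their values were seen. A gene entered a list through its brightest probe set. Motifs were matched exactly. Alternatives covered normalization, priors, filters, thresholds and arrays left out. Precision is limited by the number of arrays. Figures were drawn with matplotlib 3.10.9.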

Additional observations from a re-analysis of the deposited data

How the results depend on the processing

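The count of calls between TG3 and nonTG3 was 0 under all 17 alternatives, at an adjusted p under 0.1 as well. None of the 7 genes was called in any of them, except that Rasl2-9 was not tested where probe sets needed a mean at or above the median. Between the line and C57BL/6 the 710 calls ran from 350 to 496 when 1 array was left out and became 0 without TG3 replicate 1 and nonTG3 replicate 3, the arrays poorest in mitochondrial RNA. The list calls, 20, ran from 16 to 19 with 1 array left out and became 0 without those 2 arrays, a fit with fewer samples. In that fit Vdac3 was -2.84 against -2.77, Ldhc -2.59 against -2.53 and Pabpc6 -1.87 against -1.91. TG3 minus nonTG3 changed sign with quantile normalization repeated for Smcp (-0.045) and Spem1 (-0.079), with median centring for Spem1 (-0.0069), and without those 2 arrays for Prr27 (0.16). With 1 array left out it ran from -0.0024 to 0.25 for Smcp, -0.087 to 0.14 for Spem1, 0.094 to 0.38 for Oaz3 and -0.087 to 0.74 for Pdcl2. It ran from -0.40 to 0.13 for Rasl2-9, -0.33 to 0.14 for Prr27 and -0.14 to 0.23 for Tsx. The cause was not tested. Line minus C57BL/6 stayed between -3.88 and -3.38 for Pdcl2 and between -3.77 and -3.48 for Prr27 under every alternative run. For Smcp, Spem1 and Oaz3 it moved by more than 1 SD of the line with cyclic loess alone. With the replicate block 0 probe sets were called between TG3 and nonTG3. Same-numbered arrays did not deviate together: the correlations were -0.45, 0.016 and -0.40 for replicates 1, 2 and 3. Each gene had 1 probe set, so a second could not be tried.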

Other observations

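Among the 60 probe sets that averaged at or above 10 over the 7 arrays, a group that holds Smcp, Spem1 and Oaz3, 32 differed by 0.3 log2 units or less between the line and C57BL/6. The median difference was 0.14. Lower by at least 1 log2 unit were ND3 and CYTB, which are mitochondrially encoded, and the protamine gene Prm1. Prm1 read 11.64 in C57BL/6, with a line mean of 10.19 ± 0.09 (SD, n = 6). ND3 read 11.91 and 10.40 ± 1.95 (SD, n = 6), an SD wider than its difference. None was higher by 1 log2 unit or more, and the highest difference was 0.66, that of Defb28, a beta-defensin. These genes were picked after their values were seen and carry no test here.

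By mean level, limma called lower 1.70% of 13092 probe sets averaging under 4 and 4.37% of 8292 averaging from 4 to 6. It called lower 4.68% of 1688 from 6 to 8, 1.66% of 361 from 8 to 10 and 1 of the 60 at or above 10. The lower 4 genes average under 6 because most arrays are from the line, so these shares are a description of the table only.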
